A study of Mus musculus with 9 samples.

Results

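The transcripts of 10 subunits of the Polycomb repressive complexes were followed in mouse embryonic stem cells (mESC). The subunits were *Ezh1*, *Ezh2*, *Eed*, *Suz12*, *Jarid2*, *Mtf2*, *Ring1*, *Rnf2*, *Cbx7* and *Pcgf6*. They were chosen by gene name, with earlier results of these data known. All 10 were among the 29069 genes of the table and among the 18156 genes tested, those with a mean above 5. The cells were mESC of the D3 line, a permanent line adapted to culture without feeders, and all 9 libraries came from total RNA after 24 h in 1 of 3 media, with 3 libraries per medium. Ground-state medium (GS) was N2B27 with the MEK inhibitor PD0325901 (1 μM), 20 ng/mL of the cytokine LIF and, against GSK-3, CHIR99021 (3 μM). Differentiation medium (DM) was DMEM with 10% fetal bovine serum and without inhibitors or LIF, so that DM and GS differed in basal medium, serum, inhibitors and LIF at once. The third medium (NO) was DM plus 250 μM of the nitric oxide donor DETA/NO. All groups came from 1 cell line. Each library came from its own dish, and whether dishes of a medium were independent cultures is not stated, so p-values measure the spread between these dishes.

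Polycomb proteins keep developmental genes silent and work in a pair of complexes. Polycomb repressive complex 2 (PRC2) methylates histone H3 on lysine 27, and PRC1 places ubiquitin on histone H2A. In embryonic stem cells both sit at CpG-rich promoters of lineage regulators, which thereby stay off until differentiation. PRC2 is built from a methyltransferase (*Ezh2* or its paralogue *Ezh1*), *Eed*, which binds the methylated histone, and *Suz12*, the scaffold. Accessory proteins define its forms: *Mtf2*, which binds CpG-rich DNA, belongs to PRC2.1, and *Jarid2*, which helps to target the enzyme, to PRC2.2. PRC1 carries *Ring1* or *Rnf2* (RING1B) as ubiquitin ligase, *Cbx7* as reader of the methylated histone in its canonical form, and *Pcgf6* in a variant form that needs no methyl mark.

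Normalised counts (reads divided by a size factor of the library and rounded, by the authors) summed to 18290445 to 20508679 per library. From the spacing of low values, the libraries held an estimated 14307523 to 27061091 assigned reads. Even the least abundant value of a subunit, *Ring1* in 1 NO library, rested on about 165 reads. Among 7 markers of mESC, *Nanog* fell and *Utf1* rose in DM relative to GS, *Pou5f1* and *Utf1* fell in NO relative to DM, and all 7 were well above 0 in every library. Their summed level was 70733 to 74497 in GS, 69829 to 78405 in DM and 43722 to 70890 in NO. The lowest of these, NO replicate 2, also stood farthest out on the first principal component (131.2, against 25.9 and 67.1 for the other NO libraries and -49.1 to -26 for GS and DM). Feeder-type fibroblast markers (6 genes) summed to 312 to 485 in all media, with *Postn* at 0 in 7 of the 9 libraries and *Dcn* at 1 to 6. Of the 4 tested, *Thy1* rose in DM and NO relative to GS (log2 difference 1.7 and 1.47), *Col1a1* rose and *Pdgfrb* fell in NO relative to GS (1.49 and -0.97), and *Col1a1* rose in NO relative to DM (1.56). Their part in the results, and that of NO replicate 2, was not tested beyond the values given without that library. As these are bulk samples, fewer cells expressing a gene and less RNA per cell cannot be told apart.

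The subunits that passed the test in any comparison were *Jarid2*, *Suz12* and *Pcgf6*. Their promoter windows, 250 bases before to 50 bases after an annotated start (RefSeq, GRCm38.p6), are shown 5′ to 3′ because these genes carry the changes. The capitals mark matches to the motifs searched on both strands: TTTCCCGC and TTTGGCGC (E2F, cell cycle factors), CTTTGAT (TCF/LEF, the nuclear end of Wnt signalling, which the GSK-3 inhibitor activates) and TTCNNNGAA (STAT, which LIF activates). *Jarid2* and *Mtf2* have another annotated start each, and the first is shown for *Jarid2*.
Jarid2 (chr13:44730524-44730823, plus strand): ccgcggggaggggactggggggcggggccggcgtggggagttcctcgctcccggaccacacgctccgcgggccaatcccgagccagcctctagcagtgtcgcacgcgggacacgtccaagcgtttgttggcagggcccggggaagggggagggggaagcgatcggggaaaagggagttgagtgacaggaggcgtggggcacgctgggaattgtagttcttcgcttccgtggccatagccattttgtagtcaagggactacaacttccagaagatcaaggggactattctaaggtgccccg
Suz12 (chr11:79992856-79993155, plus strand): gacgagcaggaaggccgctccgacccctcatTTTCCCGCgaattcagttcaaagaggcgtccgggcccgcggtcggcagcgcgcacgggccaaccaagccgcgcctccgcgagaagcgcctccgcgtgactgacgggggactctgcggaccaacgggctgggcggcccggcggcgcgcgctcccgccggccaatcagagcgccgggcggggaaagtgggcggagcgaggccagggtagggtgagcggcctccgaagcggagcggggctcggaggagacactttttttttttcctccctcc
Pcgf6 (chr19:47050857-47051156, minus strand): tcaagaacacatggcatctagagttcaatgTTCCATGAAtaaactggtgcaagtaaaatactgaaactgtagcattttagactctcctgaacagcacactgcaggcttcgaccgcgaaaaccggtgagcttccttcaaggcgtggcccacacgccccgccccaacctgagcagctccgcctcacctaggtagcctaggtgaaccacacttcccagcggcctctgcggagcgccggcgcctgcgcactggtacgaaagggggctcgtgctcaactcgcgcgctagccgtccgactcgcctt
The *Jarid2* window held none of these letters. The *Suz12* window held an E2F match 219 bases before the start, and the *Pcgf6* window a STAT match 220 bases before the start. Of all 10 members, matched by symbol, E2F letters were found in *Suz12* and *Ezh2*, STAT letters in *Pcgf6* and TCF/LEF letters in none. Among 32851 windows of all genes, 1.6% held the E2F letters, 3.7% the TCF/LEF letters and 8.3% the STAT letters. Each member had a window with at least 17 CpG, where all windows had a median of 7 and an upper quartile of 20. The lowest of these, *Eed* with 17, had more than 68.6% of all windows, and *Suz12* with 41 more than 96.5%. The other window of *Mtf2* had 2 CpG. A match is a description of the sequence and not a binding site.

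In GRCm38 (GENCODE M21), *Jarid2* (ENSMUSG00000038518) lies at chr13:44729474-44921643 and *Suz12* (ENSMUSG00000017548) at chr11:79993106-80034123, both on the plus strand, and *Pcgf6* (ENSMUSG00000025050) at chr19:47033617-47050906 on the minus strand. Of the other members, *Mtf2* (chr5:108065674-108109004) is on the plus strand. On the minus strand are *Ezh1* (chr11:101191115-101226463), *Ezh2* (chr6:47530139-47595341), *Eed* (chr7:89954654-89980983), *Ring1* (chr17:34020792-34024680), *Rnf2* (chr1:151458004-151500955) and *Cbx7* (chr15:79915807-79971119). Each value below sums reads over the exons of the whole gene, UTRs included.

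Transcript levels per length differed widely between the subunits. On the scale of normalised counts per kb of exon, *Mtf2* was highest in each medium, with 1638 ± 311 in GS (SD, n = 3), and *Ring1* lowest, with 94.8 ± 11.0. In GS the order continued with *Eed* (962), *Suz12* (810), *Jarid2* (627), *Cbx7* (526), *Rnf2* (435), *Ezh2* (424), *Pcgf6* (223) and *Ezh1* (137). The libraries overlapped between *Eed* and *Suz12*, *Cbx7* and *Rnf2*, and *Rnf2* and *Ezh2*, so that these neighbours were not separated. In DM *Jarid2* moved to the second place with 954 ± 61.0, beside *Eed* (867 ± 217) with overlapping libraries, and *Suz12* to the fifth with 547 ± 81.0, behind *Cbx7* (719 ± 83.7). In NO the order of means was again that of GS, with *Jarid2* at 697 ± 75.9 and *Suz12* at 806 ± 96.5, and only *Mtf2*, the block from *Eed* to *Cbx7*, the pair *Rnf2* and *Ezh2*, the pair *Pcgf6* and *Ezh1*, and *Ring1* were separated from one another. Lengths were taken over all annotated exons of a gene, so unused exons lower a value.

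**Figure D1:**
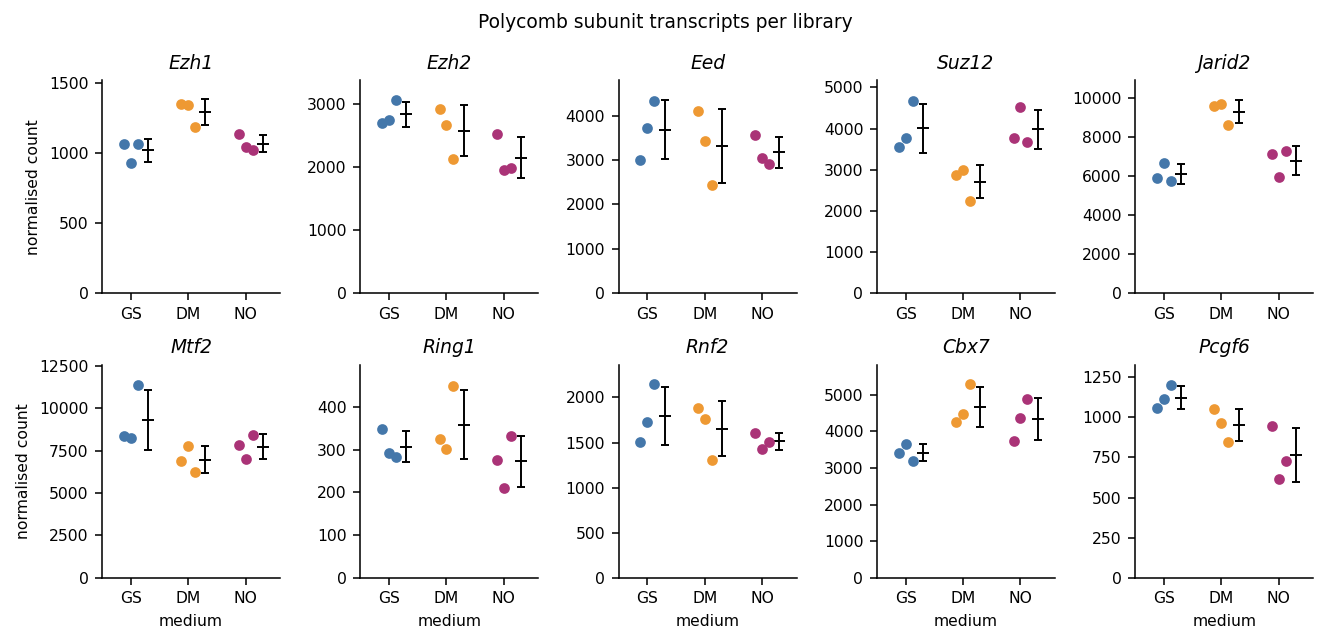
Normalised counts (y axis, from 0) of the 10 subunits in each library, by medium (x axis). Points are libraries in the order of replicates 1 to 3, and the bar beside them is the mean ± SD (n = 3). *Jarid2* is higher and *Suz12* lower in all 3 DM libraries than in all GS and NO libraries.

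The comparison of DM with GS asked how the subunits stood once the inhibitors and LIF were gone and serum was present. *Jarid2* alone passed the test in this comparison, and its transcript rose 1.52-fold. Its normalised counts were 5876, 6654 and 5742 in GS replicates 1, 2 and 3, and 9574, 9651 and 8589 in DM. Every DM library lay far above every GS library. The log2 difference was 0.61 ± 0.13 (SE), with an adjusted p of 0.0198 (limma, Benjamini-Hochberg over all genes tested). This call depended on single libraries: the adjusted p was 0.0823 without GS replicate 1, 0.0917 without GS replicate 3, 0.0774 without DM replicate 1 and 0.0786 without DM replicate 2. It was 0.0503 without a mean-variance trend. The log2 difference stayed between 0.57 and 0.67 in all 19 alternatives. Of 10 members, 1 was thus higher and 0 lower, where 4.37% of all genes tested were called higher and 2.32% lower. No member changed 2-fold with an adjusted p under 0.05, against 4.2% of all genes. The median log2 difference over the members was -0.14 and that over all genes -0.001.

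*Suz12*, the PRC2 scaffold, had normalised counts of 3564, 3776 and 4670 in GS and 2864, 3001 and 2249 in DM. The groups did not overlap, yet the log2 difference of -0.57 ± 0.16 (SE) had an adjusted p of 0.0583. It was 0.028 without NO replicate 2, since all libraries share one estimate of the spread, and 0.0485 with only the 6 GS and DM libraries. *Mtf2* also had lower values in each DM library (6879, 7791 and 6250) than in GS (8389, 8231 and 11374), with a log2 difference of -0.41 ± 0.16 and an adjusted p of 0.173. *Ezh1*, the less active methyltransferase, had 1067, 929 and 1068 in GS and 1353, 1342 and 1190 in DM (log2 difference 0.34 ± 0.13, adjusted p 0.145).

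*Cbx7*, the chromodomain reader, had values of 3406, 3646 and 3194 in GS and 4249, 4470 and 5280 in DM. Its log2 difference of 0.45 ± 0.14 had an adjusted p of 0.0932. *Pcgf6* had 1055, 1114 and 1199 in GS against 1049, 962 and 845 in DM (log2 difference -0.24 ± 0.17, adjusted p 0.464). The 3 values of DM thus stood apart from the 3 of GS for 6 of the 10 members (*Ezh1*, *Jarid2* and *Cbx7* above, *Suz12*, *Mtf2* and *Pcgf6* below). Of all genes tested, 29.6% stood apart in this way. For the other members the groups overlapped, and the 95% confidence intervals of the log2 difference ran from -0.49 to 0.19 for *Ezh2*, from -0.60 to 0.27 for *Eed*, from -0.25 to 0.67 for *Ring1* and from -0.50 to 0.25 for *Rnf2*. Each of these intervals left out a 2-fold change in either direction. Over all libraries *Eed* ranged from 2445 to 4328 normalised counts, *Rnf2* from 1306 to 2145 and *Ring1* from 211 to 450.

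**Figure D2:**
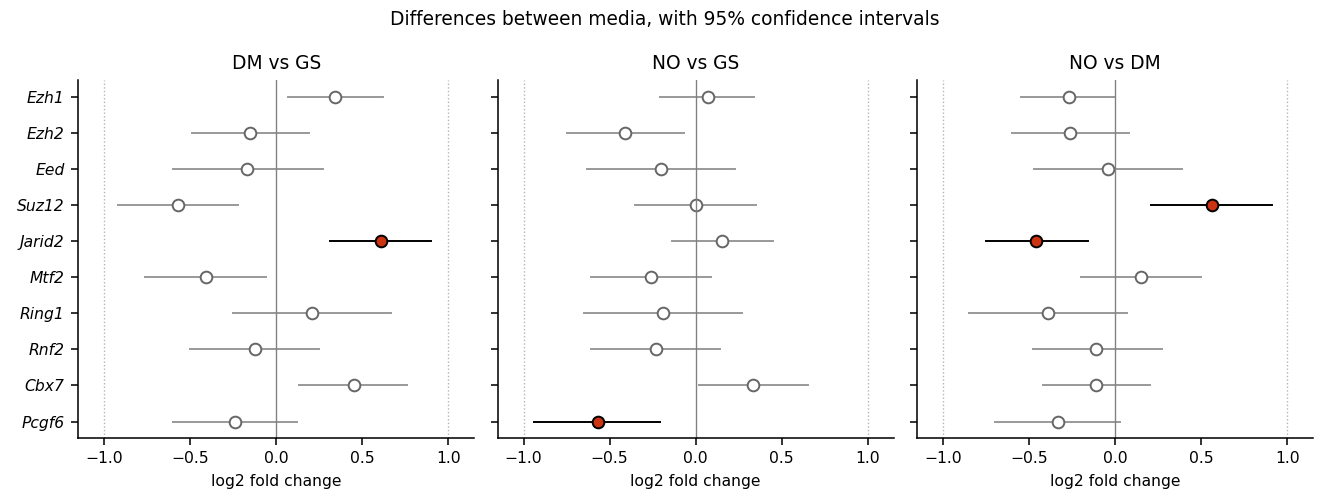
Log2 differences (x axis, on the log2(normalised count + 1) scale) of the 10 subunits in the 3 comparisons, with 95% confidence intervals from limma that are not adjusted for the number of genes. Filled points have an adjusted p under 0.05, and dotted lines mark a 2-fold change, which no interval reached.

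The comparison of NO with GS set cells that left the ground state with the donor against those kept in it. *Pcgf6*, which defines a variant PRC1, fell in NO, and no other subunit passed the test. It had values of 945, 618 and 730 in NO replicates 1, 2 and 3, all under the lowest GS value of 1055, and NO replicate 2 was the lowest. The log2 difference was -0.57 ± 0.17 (SE, adjusted p 0.0315 by limma). The adjusted p was 0.0901 without NO replicate 2, 0.0912 without NO replicate 3, and 0.0646, 0.088 and 0.107 without GS replicates 1, 2 and 3. It was 0.0775 with libraries scaled to equal totals, 0.0592 after quantile normalisation and 0.0514 with only the 6 libraries compared. Of 10 members, 0 were called higher and 1 lower, where 13.4% of all genes tested were higher and 6.64% lower. The 2-fold threshold was passed by no member and by 11.7% of all genes.

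*Ezh2*, the main methyltransferase of dividing cells, had values of 2695, 2741 and 3060 in GS and 2516, 1947 and 1978 in NO. All NO values lay under all GS values, with a log2 difference of -0.41 ± 0.15 and an adjusted p of 0.0842, and of 0.0292 without NO replicate 1. *Ezh2* is known to be transcribed with the cell cycle, and the summed level of 9 proliferation genes was 82054 to 93942 in GS, 82875 to 93950 in DM and 67572 to 82197 in NO. None of these 9 passed the test in NO vs GS. In NO vs DM 1 of the 9 was called lower, where 5.24% of all genes tested were. *Ezh2* had a log2 difference of -0.26 ± 0.15 in NO vs DM (adjusted p 0.282 by limma). Whether the 9 genes bear on *Ezh2* was not tested. *Cbx7* had 3733, 4368 and 4875 in NO, above all GS values (log2 difference 0.33 ± 0.14, adjusted p 0.119), and its adjusted p was 0.0453 with equal totals, 0.0415 after quantile normalisation and 0.0486 without NO replicate 1. Groups stood apart for these 3 members, that is for 3 of 10, and for 39.1% of all genes tested. *Suz12* had 3761, 4534 and 3663 in NO and *Jarid2* 7117, 5929 and 7280, values that overlapped those of GS. The log2 difference was -0.00 for *Suz12* (95% confidence interval -0.35 to 0.35) and 0.15 for *Jarid2* (-0.14 to 0.45).

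The comparison of NO with DM differed by the donor alone. *Jarid2* fell 1.37-fold and *Suz12* rose 1.48-fold in NO relative to DM. All NO libraries lay under all DM libraries for *Jarid2* and above all of them for *Suz12*. The log2 difference of *Jarid2* was -0.46 ± 0.13 (SE, adjusted p 0.044 by limma) and that of *Suz12* 0.56 ± 0.16 (adjusted p 0.0378). Both calls were lost with the replicate number as a block (0.0667 and 0.0513). That fit is given because deviations of same-numbered NO and DM libraries correlated weakly (0.16, 0.17 and 0.3). Whether a replicate number marks a shared batch is not stated in the labels. Both calls were also lost with only the 6 libraries compared (0.104 and 0.0769). For *Jarid2* the adjusted p was 0.0558 to 0.123 when any library other than NO replicate 1 was left out, 0.1 with equal totals and 0.131 after quantile normalisation. For *Suz12* it was 0.0527 to 0.11 when GS replicate 1 or 2, any DM library, or NO replicate 2 or 3 was left out. Of 10 members, 1 was called higher and 1 lower (0 and 0 with the replicate block), where 9.01% of all genes were higher and 5.24% lower. No member and 8.55% of all genes changed 2-fold.

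*Ezh1* was the other member with groups apart. Its NO values of 1136, 1048 and 1024 lay under the DM values, with a log2 difference of -0.27 ± 0.13 and an adjusted p of 0.16. *Pcgf6* had a log2 difference of -0.33 ± 0.17 with an adjusted p of 0.195, and of 0.0383 without NO replicate 1. Groups were apart for 3 of 10 members and for 33.4% of all genes tested. For *Eed* the 95% confidence interval of the log2 difference was -0.47 to 0.39, for *Rnf2* -0.48 to 0.27 and for *Mtf2* -0.20 to 0.50. *Ring1* had values of 277, 211 and 331 in NO and 325, 301 and 450 in DM (log2 difference -0.39 ± 0.21, adjusted p 0.225). A moderated F test over the 3 media called *Jarid2* (adjusted p 0.017) and *Suz12* (0.0312), that is 2 of 10 members, where 23.3% of all genes tested were called. It called 4 members without NO replicate 1, 0 without DM replicate 1 and 1 without any 1 of the other libraries but NO replicate 2. The 3 comparisons share their groups pairwise and are not independent of one another.

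Ratios of subunits within a library do not depend on the scaling of the libraries and were taken per kb of exon. They are given as values with no test. The ratio of *Ezh2* to *Ezh1* was 2.81, 3.29 and 3.19 in GS replicates 1, 2 and 3, 2.4, 2.21 and 1.99 in DM, and 2.47, 2.07 and 2.15 in NO. It was thus higher in each GS library than in any other. The ratio of *Mtf2* to *Jarid2*, the accessory proteins of PRC2.1 and PRC2.2, was 2.43, 2.11 and 3.38 in GS, 1.23, 1.38 and 1.24 in DM, and 1.87, 2.01 and 1.97 in NO. The 3 media did not overlap, with NO between DM and GS. The ratio of *Pcgf6* to *Cbx7* lay between 0.39 and 0.48 in GS, between 0.21 and 0.32 in DM and between 0.18 and 0.33 in NO, so that GS stood above both other media. The ratio of *Rnf2* to *Ring1*, the ubiquitin ligases, overlapped between all media, with means ± SD (n = 3) of 4.68 ± 1.29 in GS, 3.81 ± 1.33 in DM and 4.48 ± 0.87 in NO.

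**Figure D3:**
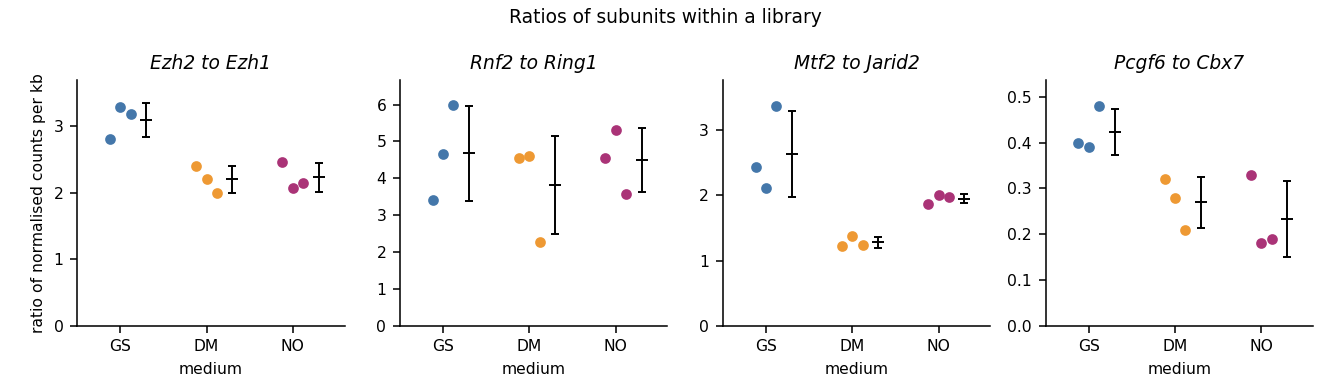
Ratios of normalised counts per kb of exon (y axis, from 0) for 4 pairs of subunits in each library, by medium (x axis). Points are libraries in the order of replicates 1 to 3, with the mean ± SD beside them (n = 3). GS lies above DM and NO for *Ezh2* to *Ezh1* and for *Pcgf6* to *Cbx7*, the 3 media are separate for *Mtf2* to *Jarid2*, and they overlap for *Rnf2* to *Ring1*.

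Changes larger than those of the 10 members were found among 46 other genes of the pathway, all of which were tested. In DM vs GS, 4 of the 46 rose and 3 fell, in NO vs GS 5 rose and 3 fell, and in NO vs DM 2 rose and 3 fell. Over all genes tested, 4.37% were higher and 2.32% lower in the first comparison, 13.4% and 6.64% in the next, and 9.01% and 5.24% in the last. The share of the 46 that rose was below that of all genes in both comparisons of NO and above it in DM vs GS. The share that fell was above that of all genes in DM vs GS and NO vs DM and near it in NO vs GS. With so few genes called, these shares were not tested. The 7 calls of DM vs GS were 3 without GS replicate 2 and 4 without GS replicate 3, DM replicate 1 or DM replicate 3. The 8 of NO vs GS were 5 without GS replicate 1 or NO replicate 2 and 4 without NO replicate 3. The 5 of NO vs DM were 2 without GS replicate 1 or 2, 3 without GS replicate 3, 1 without NO replicate 2, 0 without NO replicate 3 or any 1 of the DM libraries, and 14 without NO replicate 1. At least a 2-fold change was present for 3, 3 and 2 of them. Their median log2 difference was -0.15, -0.03 and 0.01, beside -0.001, -0.016 and 0.001 over all genes.

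*Phf19*, like *Mtf2* a PRC2.1 subunit that binds DNA and methylated histone, was the accessory gene with the largest change. It had values of 30, 41 and 28 in GS, 188, 197 and 200 in DM, and 165, 88 and 136 in NO. It rose by 2.55 ± 0.26 (SE) on the log2 scale from GS to DM (adjusted p 0.000228) and by 1.91 ± 0.26 in NO vs GS (0.00102), and passed in all 19 alternatives in both. Per kb it reached 38.7 ± 1.2 in DM, far under the 1224 ± 136 of *Mtf2*. The other PRC2.1 genes *Phf1*, *Lcor*, *Lcorl* and *Epop* did not pass, with adjusted p values from 0.0514 to 0.961. *Phf1* in NO vs DM (log2 difference 0.70, 0.0514) passed under the replicate block (0.0368), with equal totals (0.0362) and without NO replicate 1 (0.00624). *Aebp2*, the partner of *Jarid2* in PRC2.2, and the histone-binding core subunits *Rbbp4* and *Rbbp7* also did not pass (lowest adjusted p 0.0755, for *Rbbp7* in DM vs GS, which was 0.0485 without NO replicate 2). *Ezhip*, an inhibitor of PRC2 that is normally germline restricted, had 7, 23 and 7 in GS and 19, 72 and 47 in NO, with overlapping groups. Its adjusted p was 0.0331 in NO vs GS and 0.0502 to 0.12 when GS replicate 1 or 3, DM replicate 2 or NO replicate 2 or 3 was left out.

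Among canonical PRC1 genes, *Phc1*, a polyhomeotic subunit that lets complexes cluster, had values of 4251, 4551 and 4051 in GS, 9699, 9854 and 9942 in DM, and 7756, 6713 and 7588 in NO. The 3 media did not overlap. Its log2 difference was 1.2 ± 0.12 (SE) for DM against GS (adjusted p 0.000219) and 0.78 ± 0.12 for NO against GS (0.00169), both past the threshold in all 19 alternatives. In NO vs DM it was -0.42 ± 0.12 (0.0403), with 0.0642 under the replicate block and 0.0555 to 0.102 when any library but NO replicate 1 was left out. *Cbx8*, a relative of *Cbx7*, fell in DM relative to GS. It had 68, 89 and 66 in GS, 21, 29 and 20 in DM, and 37, 83 and 52 in NO. The log2 difference was -1.64 in DM vs GS (adjusted p 0.011) and 1.2 in NO vs DM (0.0317). Without GS replicate 2 the former was at 0.0621, and without any 1 of the DM libraries or NO replicates 2 and 3 the latter at 0.0537 to 0.102. It was far less abundant than *Cbx7*, at 6.35 normalised counts per kb in DM against 719. *Scmh1* rose in NO relative to GS and to DM, by 1.25 ± 0.31 each, from 82 to 133 in GS and 90 to 118 in DM to 163, 413 and 256 in NO. Its adjusted p values were 0.0168 and 0.0238. The former was 0.0768 without GS replicate 3 and 0.0504 without NO replicate 3, and the latter 0.0506 to 0.0832 without any 1 of the DM libraries or NO replicates 2 and 3.

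**Figure D4:**
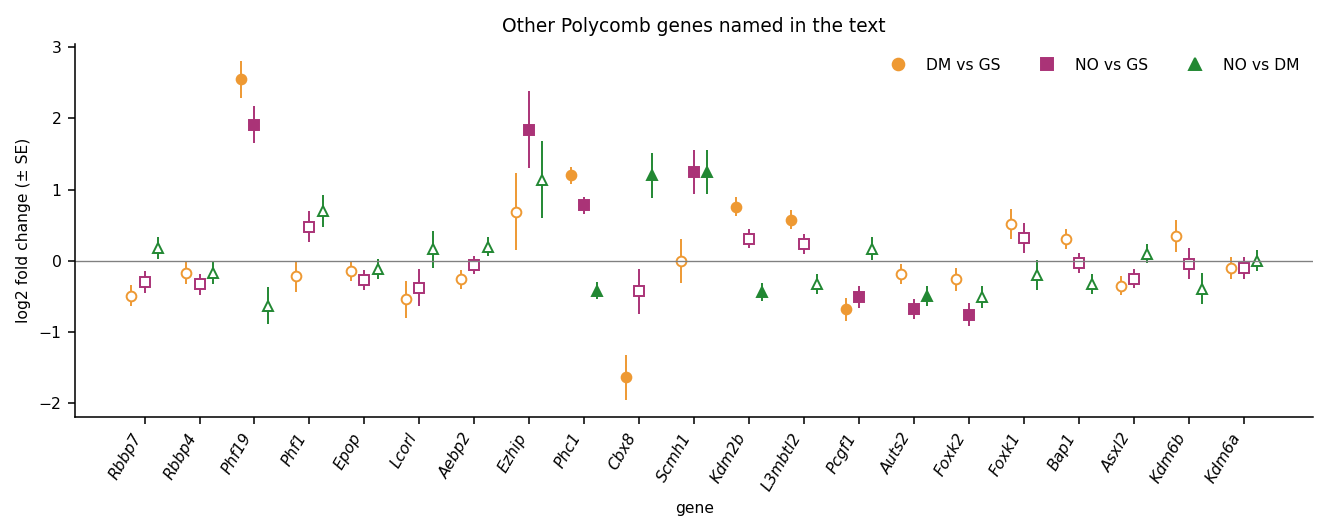
Log2 differences ± SE (y axis) of 21 other Polycomb genes (x axis, ordered by complex) in DM vs GS (circles), NO vs GS (squares) and NO vs DM (triangles). Filled symbols have an adjusted p under 0.05. *Phf19* and *Phc1* are raised in DM and NO, and *Cbx8* is lowered in DM.

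Of variant PRC1 genes, *Kdm2b*, which brings PRC1 to unmethylated CpG, had values of 3359, 3497 and 3032 in GS and 5621, 5179 and 5902 in DM. It rose by 0.76 ± 0.13 (SE) on the log2 scale in DM (adjusted p 0.00392), past the threshold in all 19 alternatives, and fell by 0.44 in NO relative to DM (0.0371, but 0.0591 under the replicate block and 0.0609 to 0.102 when any library but GS replicate 3 or NO replicate 2 was left out). *L3mbtl2*, which shares a complex with *Pcgf6*, rose by 0.58 ± 0.14 in DM vs GS (0.0329), but its adjusted p was 0.0551 to 0.145 without any 1 of the GS or DM libraries. *Pcgf1*, the partner of *Kdm2b*, had 335, 384 and 360 in GS, 221, 236 and 214 in DM and 255, 221 and 285 in NO, and was lower in both media (adjusted p values 0.0239 and 0.0416, and 0.0564 and 0.0726 under the replicate block). Without 1 library of GS or DM the former was 0.0569 to 0.111, and without any 1 library but DM replicate 3 the latter was 0.0539 to 0.141. *Auts2* fell by 0.68 in NO vs GS (0.00734) and by 0.49 in NO vs DM (0.0412, but 0.0651 under the replicate block and 0.0538 to 0.142 when any library but NO replicate 1 was left out). *Bmi1* (log2 difference -0.91 in DM vs GS, adjusted p 0.0437) and *Bcor* (0.60 in NO vs GS, 0.0287) also passed and are named after their values were seen. *Bmi1* was at 0.0694 to 0.194 without GS replicate 2 or 3, DM replicate 1 or 3 or NO replicate 3, and *Bcor* at 0.055 to 0.11 without any 1 of the GS libraries or NO replicates 2 and 3. In DM vs GS *Bcor* had a similar log2 difference of 0.58. It passed there only with the 6 libraries compared (0.019) and without NO replicate 1 (0.0291) or 2 (0.017). In PR-DUB, the complex that removes ubiquitin from H2A, *Foxk2* fell by 0.76 in NO vs GS (0.00749), had a log2 difference of -0.51 in NO vs DM (0.0559, and 0.0453 under the replicate block), and *Foxk1*, *Bap1* and *Asxl2* did not pass. The demethylases of histone H3 lysine 27, *Kdm6a* and *Kdm6b*, passed in no comparison (lowest adjusted p 0.249).

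Of 31 developmental regulators widely known as Polycomb-bound in mESC, 18 had a mean above 5 and were tested, and *Hoxb1* is not analysed here. In DM vs GS 0 rose and 4 fell, in NO vs GS 4 rose and 4 fell, and in NO vs DM 7 rose and 1 fell, beside the shares of all genes given above for the other Polycomb genes (4.37% higher and 2.32% lower, 13.4% and 6.64%, 9.01% and 5.24%). The median log2 difference was -0.35, 0.55 and 1.6, and that of all genes -0.001, -0.016 and 0.001. Some of the 18 exceeded a mean of 5 only through the medium where they were high. Examples are *Tbx2* (means 2.7 in GS, 2.0 in DM and 35.0 in NO), *Pax7* (3.7, 4.7 and 28.7), *Pax6* (4.0, 11.3 and 2.0) and *Cdx2* (58.3, 1.3 and 7.3). These counts and medians thus follow in part from that filter. The genes that passed the test for being lower in DM were *T* (137, 183 and 131 in GS, 10, 1 and 0 in DM), *Cdx2* (54, 75 and 46 in GS, 0, 4 and 0 in DM), *Gata2* and *Eomes*. Several of these are also targets of Wnt signalling, whose part was not tested. In NO, *Gata6* reached 20, 234 and 90 normalised counts, *Hand1* 11, 111 and 33, *Pax7* 11, 51 and 24, *Hoxd13* 45, 106 and 75, and *Gata3* 41, 114 and 46. For each of them NO replicate 2 was the highest library. *Pax6* had 13, 8 and 13 in DM and 2, 3 and 1 in NO. *Gata4*, named after its values were seen, was also higher in NO than in DM (log2 difference 0.99, adjusted p 0.0486, 0.069 under the replicate block, and 0.056 to 0.161 without any 1 of the GS libraries, DM replicates 1 and 2 or NO replicates 2 and 3). *Gata4* and *Gata6* also mark primitive endoderm, and 6 markers of that lineage summed to 7511 to 8314 in GS, 2894 to 3579 in DM and 3412 to 4569 in NO, mostly from *Lama1*, which fell in both media relative to GS. Of the 5 tested, *Dab2* and *Gata6* rose in NO relative to GS, and *Gata4* and *Gata6* rose in NO relative to DM. Their part was not tested. *T* had 8, 28 and 22 in NO, which overlapped DM, and rose by 2.7 in NO vs DM (0.0342). That call was lost with only the 6 libraries (0.101), after quantile normalisation (0.0609), with no minimum mean (0.0572), without a trend (0.076), with vooma weights (0.0643), and at 0.0549 to 0.108 without any 1 library but DM replicate 1 or NO replicate 1. *Cdx2* passed in NO vs DM only under the replicate block (0.0285) and without DM replicate 2 (0.0291) or NO replicate 1 (0.0319), and *Tbx2*, named after its values were seen, passed there under the block (0.0372). The call of *Eomes* in DM vs GS was lost without DM replicate 1 (0.0691) or 3 (0.054) or GS replicate 2 (0.0777) or 3 (0.0745). The 4 that fell in NO vs GS, beside 4 that rose, were again *T*, *Cdx2*, *Gata2* and *Eomes*. *Gata2* and *Eomes* passed there in all 19 alternatives, with log2 differences of -1.95 to -1.26 and -1.77 to -1.36. In NO vs GS, *T* was at 0.0608 and *Cdx2* at 0.0522 without GS replicate 2, *Gata6* at 0.0519 to 0.0734 without GS replicate 2 or 3 or NO replicate 2 or 3, and *Hoxd13* at 0.0556 to 0.147 without any 1 library but DM replicate 3 or NO replicate 1. In NO vs DM, *Hand1* was at 0.0633 to 0.152 without any 1 library but NO replicate 1, and *Pax7* at 0.0573 to 0.103 without any 1 of the DM libraries or NO replicates 2 and 3. There *Pax6* was at 0.0561 to 0.0964 without any 1 of the DM libraries or NO replicate 3, *Gata6* at 0.0565 to 0.0603 without DM replicate 1 or 2 or NO replicate 3, and *Gata3* at 0.0601 without DM replicate 2. In NO vs GS, 4 of the 18 passed without GS replicate 2. In NO vs DM the number of the 18 that passed was 8, 4 without NO replicate 2, 2 without NO replicate 3 or DM replicate 2, 3 without DM replicate 1, 4 without DM replicate 3, 5 without GS replicate 2 or 3, and 12 without NO replicate 1. These values are low, and a few reads separate many of them.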

How the data were processed

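Total RNA-Seq of 9 mESC libraries was analysed, 3 per medium, with groups from the medium label. Per the methods of the study, ribosomal RNA was depleted, libraries were sequenced on an Ion Torrent Proton, reads were trimmed with Reaper, aligned to GRCm38 with STAR 2.4.0a and counted over exons with featureCounts 1.4.5-p1. Reads on several genes or positions were left out. Use of strand is not given in the sources used here. Between 1.54% and 6.93% of the exon bases of *Ezh2*, *Eed*, *Suz12*, *Mtf2*, *Rnf2* and *Cbx7* overlap another gene in GENCODE M21. Among the other Polycomb genes the largest shares were 39.3% for *Phf1*, 18.0% for *Rbbp4*, 17.2% for *L3mbtl2* and 8.74% for *Kdm2b*. The counts of such genes are less certain. The deposited values are a score per gene, a count divided by a DESeq2 size factor and rounded by the authors. A count model was therefore not fitted. A column of sums was not used.

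The test was limma's moderated test on log2(value + 1), over genes whose mean exceeded 5, with limma 3.58.1 in R 4.3.3 (all 9 libraries, no covariate, mean-variance trend, two-sided). The threshold was an adjusted p (Benjamini-Hochberg) of 0.05. A log2 difference is the log2 fold change of that fit, and a 2-fold change, which the study also required, was counted separately. Fold changes on this scale understate changes of low genes. On simulated data for NO vs GS (18169 genes tested, 200 changed by 1.5 on the log2 scale), 97% of changed genes were recovered and 3% of calls were unchanged genes. The changed genes all had a mean above 50, and the spread beyond counting noise was set the same for every gene. Their change was larger than that of any member, so the share recovered does not apply to the members or to low genes. The value of 1 read was estimated from gaps and doublings among low values. Members, lists and ratios were chosen with earlier results of these data known, and 1 listed gene is not reported here and was left out of the counts of its list. Named were all members, other listed genes that passed with a 2-fold change, and per role the 4 genes with the smallest F-test p. Replicate numbers recur in the labels of the 3 media. The deviations from group means of same-numbered NO and DM libraries correlated at 0.16, 0.17 and 0.3, so the block is given there. For DM and GS these were -0.18, 0.02 and -0.23, and for NO and GS -0.05, 0.05 and -0.11. Alternatives are given in the closing section.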

Additional observations from a re-analysis of the deposited data

How the results depend on the processing

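Of 570 fold changes of members recomputed under 19 alternatives each (3 comparisons, 10 genes), 524 kept their side of the threshold, 39 lost a call, 7 gained one and 0 reversed a call. Most of the 524 were differences that passed in neither fit. Calls were lost in 5 of 19 alternatives for *Jarid2* in DM vs GS and in 9 of 19 for *Pcgf6* in NO vs GS. In NO vs DM they were lost in 14 of 19 for *Jarid2* and in 11 of 19 for *Suz12*. A difference that passed in neither fit was counted as unchanged whatever its sign. With only the 6 libraries compared, 2 members passed for DM against GS, and 0 for NO against either medium. Without a trend these numbers were 0, 0 and 0, and 1 by the F test. In NO vs DM, 0 members passed with the replicate block, 0 with no minimum mean, 1 with equal totals and 1 after quantile normalisation. With 1 library left out, 0 to 2 members passed for DM against GS, 0 to 3 for NO against GS, 0 to 3 for NO against DM and 0 to 4 by the F test.

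Of the 46 other Polycomb genes, 4 passed in DM vs GS with the replicate block and 5 in NO vs GS with only the 6 libraries. In NO vs DM, 0 passed with the 6 libraries, 1 with no minimum mean, 2 after quantile normalisation, 1 without a trend and 3 with vooma weights. With 1 library left out the counts were 3 to 9, 4 to 12 and 0 to 14, for the comparisons in the order above. Of the target genes, 3 passed in NO vs GS with a minimum mean of 50. In NO vs DM, 2 passed with the 6 libraries, 5 with no minimum mean, 1 with the minimum of 50, 5 after quantile normalisation, 5 without a trend and 3 with vooma weights. With 1 library left out the target counts were 4 to 10 in NO vs GS and 2 to 12 in NO vs DM. The higher minimum leaves fewer genes to test, and the other causes were not tested.

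Scaling to equal totals moved the median log2 fold change of all genes by 0.108 in NO vs GS and by 0.081 in NO vs DM, and the share of calls that were higher from 66.9% to 81.9% and from 63.2% to 77.1%. Over all genes, 2587 were called in NO vs DM, 1107 with the 6 libraries and 1464 without a trend. Besides the genes given with the replicate block in the report, the block ended the call of *Bmi1* (0.062) and *L3mbtl2* (0.057) in DM vs GS. In that comparison deviations of same-numbered libraries correlated at -0.18, 0.02 and -0.23. The block added *Pcgf3* for NO against DM (0.0323) and against GS (0.0419), and for NO against DM also *Phf1*, *Foxk2*, *Cdx2* and *Tbx2*, as given in the report. The lowest value of a member rested on about 165 estimated reads (*Ring1*), and whether depth limited the members was not tested. Values under about 30 rest on few reads.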
